A study of Mus musculus with 24 samples.

Results

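The genes described here serve the last stage of outer segment uptake in the mouse retinal pigment epithelium (RPE): phagosome maturation, the lysosomal enzymes and the proton pump that acidifies both compartments. They are 34 genes taken by symbol, of 54232 gene identifiers counted in the series, and all 34 were measured and passed the filter on low counts that left 20275 genes for testing. The libraries fall into 8 groups of 3. Of these, 4 groups came from mice labelled Per1-/-Per2Brdm1, called KO here, at circadian times CT19, CT22, CT1 and CT10, and 4 came from wild type mice (WT) at the same times. All animals were males, 6 weeks old, of the strain C57BL/6/J x 129 SvEvBrd. No label names a Cre driver or restricts an allele to the RPE. The layer was cut from frozen eyes with a laser, and 5 of the 24 libraries, 4 KO and 1 WT, hold RNA from 2 eyes each. Nothing in the labels ties each library to an animal of its own, so the p-values below reflect spread between libraries, part of which may be technical.

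Every morning the RPE engulfs the shed tips of photoreceptor outer segments. The new phagosome first carries the small GTPase Rab5, then exchanges it for Rab7, and fuses with lysosomes that hold acid hydrolases. The vacuolar ATPase, a rotary pump with a cytosolic V1 sector and a membrane V0 sector, supplies the acidity that these hydrolases need. In mammals many genes of this system carry a short DNA element that is bound by the transcription factor TFEB and its relatives. Its core, CACGTG, is also the E-box to which the circadian activators CLOCK and BMAL1 bind. The series asks whether Per1 and Per2, repressors of that clock, are needed for the daily rhythm of uptake.

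Total counts per library ran from 16245067 to 32066263. Per1 and Per2 counts were higher in libraries labelled KO than in those labelled WT at CT19, CT22 and CT1. Per2, for example, averaged 106 ± 26.9 CPM in KO and 25.3 ± 4.81 CPM in WT at CT19 (SD, n = 3; CPM, counts scaled to library size). A count over the whole gene does not show which exons were present, so it is no check of the deletion. All 10 RPE markers, among them Rpe65, were detected in every group, with a summed level of 33671 to 65954 CPM per library. Transcripts of other tissues came with the layer. The 12 rod markers, all detected, summed to 14971 to 85367 CPM, the 14 markers of choroid cells to 680 to 1747 CPM and the 12 immune markers to 322 to 665.5 CPM. The 10 lens markers, a list drawn up after the values of Cryba1 were seen, summed to 385 to 29974 CPM and were highest in 4 libraries, WT CT10 replicate 1, WT CT1 replicate 3and6, KO CT22 replicate 2 and KO CT1 replicate 5. In such bulk libraries fewer cells of a type and less RNA per cell cannot be told apart.

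Per kilobase of exon, the saposin precursor Psap and the aspartic protease gene Ctsd stood at the top of the 34 genes. Psap averaged 1204 ± 347 CPM per kb and Ctsd 930.02 ± 233 CPM per kb over the 24 libraries (SD). Cryba1 came next at 487 ± 600.04 CPM per kb, with a spread larger than its mean, and the cysteine protease gene Ctsb followed at 158 ± 35.9 CPM per kb. Among the pump genes the accessory subunit gene Atp6ap1 was highest at 120.1 ± 23.9 CPM per kb, and Atp6v0c was lowest at 6.11 ± 2.40 CPM per kb. Gusb, the gene of beta-glucuronidase, averaged 4.24 ± 0.79 CPM per kb. Tfeb itself was lowest of all at 3.14 ± 0.61 CPM per kb. In this order 28 of the 33 neighbouring pairs lay within 1 SD of each other, so most ranks are not separated. For 30 genes the highest library was less than 4 times the lowest, and the other 4 were Cryba1 at 58.8-fold, Ctss at 13.7-fold, Atp6v0c at 4.70-fold and Glb1 at 4.21-fold.

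Promoters of 30 of the 34 genes were in the RefSeq table (build GRCm38.p6, 250 bases before to 50 after the start); Ctsb, Npc1, Atp6v1b2 and Atp6v1h were not matched. The palindrome TCACGTGA, the TFEB-type element with the E-box core inside it, was searched on both strands. A gene was counted if any of its listed promoters held a match. The element was present in 6 of the 30 (20%), against 1.12% of the 27025 genes in that table. The core CACGTG alone, which includes every match to the longer word, was present in 11 of 30 (36.7%), against 8.09% of all genes in that table. These windows show the element in the genes of an early phagosome GTPase, 2 lysosomal proteases, a lysosomal calcium channel and the catalytic pump subunit, which did not share one direction of difference between genotypes. Each is given 5′ to 3′ on the strand of its gene, and the capitals mark TCACGTGA.
Rab5a, chr17:53479127-53479156, plus strand: acccggggatgTCACGTGActtcggccccg
Ctsa, chr2:164833743-164833772, plus strand: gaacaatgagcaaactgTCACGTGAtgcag
Ctsd, chr7:142387908-142387937, minus strand: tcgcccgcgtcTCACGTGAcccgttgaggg
Mcoln1, chr8:3500462-3500491, plus strand: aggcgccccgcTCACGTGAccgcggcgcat
Atp6v1a, chr16:44139373-44139402, minus strand: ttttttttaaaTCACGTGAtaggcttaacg

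Relative to the start in the RefSeq table, the element began at position -96 in Rab5a, -13 in Ctsa, -99 in Ctsd and -46 in Mcoln1, and farther upstream in Atp6v1a. The gene coordinates given elsewhere here are those of GENCODE and differ from these starts. By GENCODE only the Rab5a window lies before its gene, and those of Ctsa, Ctsd, Mcoln1 and Atp6v1a lie inside the gene. Ctsa held a second match just after its RefSeq start, and Atp6v0d1, the sixth gene, carried the element across its RefSeq start. At CT10, the time with the widest median difference between the genotypes, the log2 difference KO minus WT was 0.58 for Rab5a, 0.14 for Ctsa, 0.51 for Ctsd, -0.47 for Mcoln1, 0.53 for Atp6v0d1 and 0.66 for Atp6v1a. A match describes these letters only, and no binding was measured.

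Averaged over the 4 times, the phagosome and lysosome genes stood close to the same level in both genotypes. None of the 34 passed at an adjusted p under 0.05 (edgeR quasi-likelihood test, Benjamini-Hochberg over all 20275 genes), against 0.375% of all genes tested, and DESeq2 also called 0 (0.834% of all genes). At an unadjusted p under 0.05 there was 1 of 34, against 7.07% of all genes. The median log2 difference KO minus WT was 0.07 over the 34 genes and 0.02 over all genes. Above 0 were 26 of the 34 and 11096 of all 20275 genes. All 7 glycosidase and lipase genes were on that side, with log2 values of 0.003 to 0.32.

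Npc1, which exports cholesterol from the lysosome, had the smallest p. It averaged 63.1 ± 12.8 CPM in KO and 77.3 ± 14.1 CPM in WT at CT19, and 53.5 ± 14.5 CPM in KO and 58.1 ± 11.1 CPM in WT at CT22. At CT1 its KO libraries held 46.3, 56.6 and 75.4 CPM and its WT libraries 108, 84.2 and 62.8 CPM. At CT10 the KO libraries held 61.6, 50.1 and 47.5 CPM and the WT libraries 46.5, 52.4 and 76.8 CPM. KO means were the lower ones at all 4 times, but the libraries of the 2 genotypes overlapped at each. The average difference was -0.27 ± 0.12 (log2, SE), with an unadjusted p of 0.0362 and an adjusted p of 0.641 (edgeR, Benjamini-Hochberg).

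Lipa, the acid lipase that frees cholesterol from its esters, stood the other way. Its KO libraries held 95.2, 54.3 and 76.0 CPM at CT19, against 59.0, 81.5 and 77.3 CPM in WT. At CT22 they held 66.6, 52.7 and 101 CPM, against 64.1, 59.3 and 72.9 CPM in WT. At CT1 they held 77.6, 85.7 and 71.3 CPM, against 50.1, 64.7 and 70.5 CPM in WT. CT1 was the one time at which all 3 KO libraries were above all 3 WT libraries, and by less than 1 CPM for the nearest pair. At CT10 the KO libraries held 115.8, 74.9 and 70.4 CPM and the WT libraries 66.5, 81.6 and 45.4 CPM. The average log2 difference was 0.25 ± 0.12 (SE), with an unadjusted p of 0.0539 and an adjusted p of 0.714 (edgeR, Benjamini-Hochberg).

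The heat map of all libraries shows that much of the variation was shared by the genes and lay between libraries of one group. The mean log2(CPM + 1) over the 34 genes, used here as a score, was 7.50 in KO CT19 replicate 2 and 6.84 in the pooled library 3and5 of the same group. Its mean per group at CT19 was 7.16 ± 0.33 in KO and 7.30 ± 0.07 in WT (SD, n = 3). At CT22 it was 7.18 ± 0.28 in KO and 7.14 ± 0.06 in WT, and at CT1 7.10 ± 0.08 in KO and 7.11 ± 0.03 in WT. At CT10 it was 7.24 ± 0.19 in KO and 6.98 ± 0.18 in WT. The CT10 gap of 0.26 was the widest of the 4, and the libraries of the 2 genotypes overlapped at that time as well. Without Cryba1, an omission chosen after the data were seen, the CT10 score was 7.22 ± 0.17 in KO and 6.88 ± 0.19 in WT. The lowest KO library, at 7.093, then lay just above the highest WT library, at 7.079. The pooled SD within groups was 0.18. No test was run on the score, because the genes were chosen with results of these data known.

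**Figure D1:**
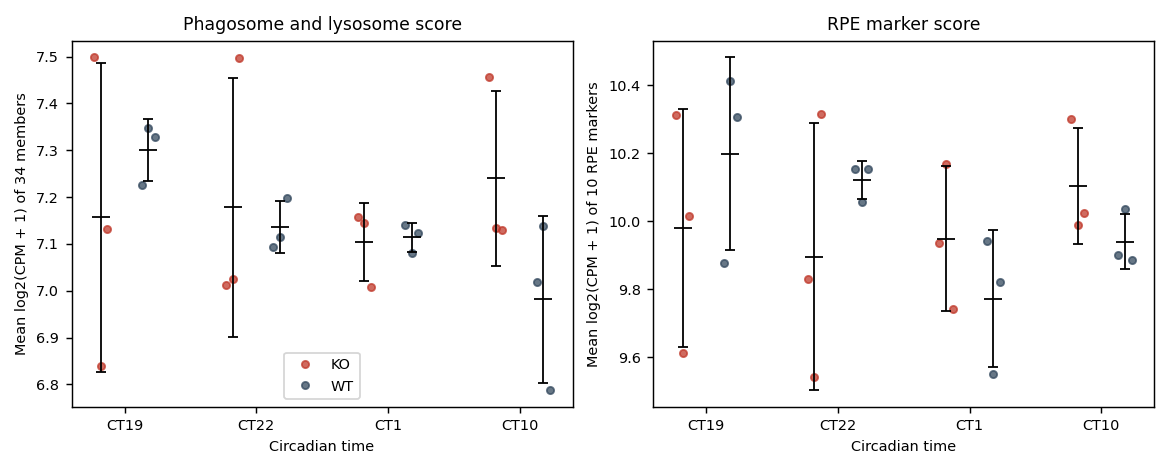
Mean log2(CPM + 1) of the 34 genes (left) and of the 10 RPE markers (right) by circadian time; points are libraries, KO left of WT, and bars give the mean ± SD of 3 libraries. The 3 KO libraries at 7.46 to 7.50 on the left lie at 10.30 to 10.32 on the right.

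As the paired plot of the 2 scores shows, the score of the genes went with the RPE marker score of the same library. Without Cryba1 the Pearson correlation over the 24 libraries was 0.817 and the Spearman correlation 0.795; it was 0.951 within KO, 0.663 within WT, and 0.836 without the 2 libraries farthest from the median RPE score. The points share their libraries and scaling, and the share of this correlation in the genotype differences was not tested beyond a fit with the RPE score as a covariate, given below. At CT10 the RPE marker score was 10.1 ± 0.17 in KO and 9.94 ± 0.08 in WT, and at CT19 it was 9.98 ± 0.35 in KO and 10.2 ± 0.28 in WT.

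CT10, late in the subjective day, was the time at which the genes stood highest in KO relative to WT. None passed the adjusted threshold (edgeR, Benjamini-Hochberg; 0.0345% of all genes did), and DESeq2 called 1, Atp6v1b2 (3.7% of all genes). The median log2 difference over the 34 was 0.40, against 0.09 over all genes tested. Of the 34, 30 had a higher fitted level in KO, as had 11249 of all 20275 genes. At an unadjusted p under 0.05, 11 were higher in KO (10.7% of all genes were) and 1 was lower (7.12% of all genes were). That count of higher genes was 6 with RLE scaling, at a median of 0.30, and 6 with DESeq2, where 2 were lower. It was 6 with a filter of 5 CPM, at a median of 0.25, and 5 with the lens score as a covariate. The median over all genes was -0.007 with RLE, -0.007 with DESeq2, 0.007 with that filter and 0.07 with the lens score. The count of higher genes rose to 18 with the rod score, 18 with a replicate block, 13 with the choroid score and 12 with no filter. It was 10 with the RPE score, 8 with the immune score, 7 without the 5 pooled libraries and 5 without the 4 libraries highest in lens markers. Here and below, shares of all genes at an unadjusted p under 0.05 were computed only for the main edgeR fit (TMM, all 24 libraries, no covariate). Counts from other fits have no such background. In 14 genes every KO library was above every WT library, against 17.7% of all genes, and in 3 every KO library was below, against 12.4%.

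The 11 came from most of the roles. Of the 3 Rab genes, Rab5a and Rab7 were among them, at log2 differences of 0.58 ± 0.19 and 0.61 ± 0.20 (SE); Rab7 drives fusion with late endosomes and lysosomes. Of the 3 lysosomal membrane proteins, Lamp2 was at 0.63 ± 0.29 and Scarb2, the receptor that carries glucocerebrosidase to lysosomes, at 0.53 ± 0.23. Of the 6 cathepsins there was Ctsl at 0.55 ± 0.25, and of the 7 glycosidase and lipase genes Hexa, a subunit of beta-hexosaminidase, at 0.46 ± 0.22. Of the 8 pump genes 5 were in this group, Atp6v0d1, Atp6v1a, Atp6v1b2, Atp6v1h and Atp6ap2, with log2 differences of 0.53 to 0.66. None of the 4 lipid handling genes was, and their values ran from -0.14 for Npc1 to 0.43 for Npc2.

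Rab5a, the GTPase of the early phagosome (ENSMUSG00000017831, GRCm38 chromosome 17, 53479234 to 53507680, plus strand), held 80.8, 67.0 and 67.6 CPM in KO and 37.2, 55.8 and 51.5 CPM in WT at CT10. All 3 KO libraries were above all 3 WT libraries. At CT1 the order was the opposite, with 45.7, 55.9 and 39.1 CPM in KO and 73.8, 58.8 and 59.5 CPM in WT, again without overlap. Its log2 difference was -0.45 ± 0.19 (SE) at CT1. Neither passed after adjustment, with adjusted p of 0.141 at CT10 and 0.198 at CT1 (edgeR, Benjamini-Hochberg).

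Mcoln1, the lysosomal calcium channel that signals to Tfeb, was the one gene lower in KO at CT10 with an unadjusted p under 0.05. It held 45.3, 41.2 and 39.3 CPM in KO and 68.2, 54.6 and 51.9 CPM in WT, a log2 difference of -0.47 ± 0.21 (SE) with an adjusted p of 0.248 (edgeR, Benjamini-Hochberg). The proton-conducting ring subunit gene Atp6v0c was also lower in every KO library, at 12.8, 20.2 and 15.4 CPM in KO and 24.0, 27.5 and 28.5 CPM in WT. Both genes stood on the other side at CT1, where Mcoln1 held 54.4, 50.5 and 57.6 CPM in KO and 41.2, 36.8 and 40.2 CPM in WT.

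**Figure D2:**
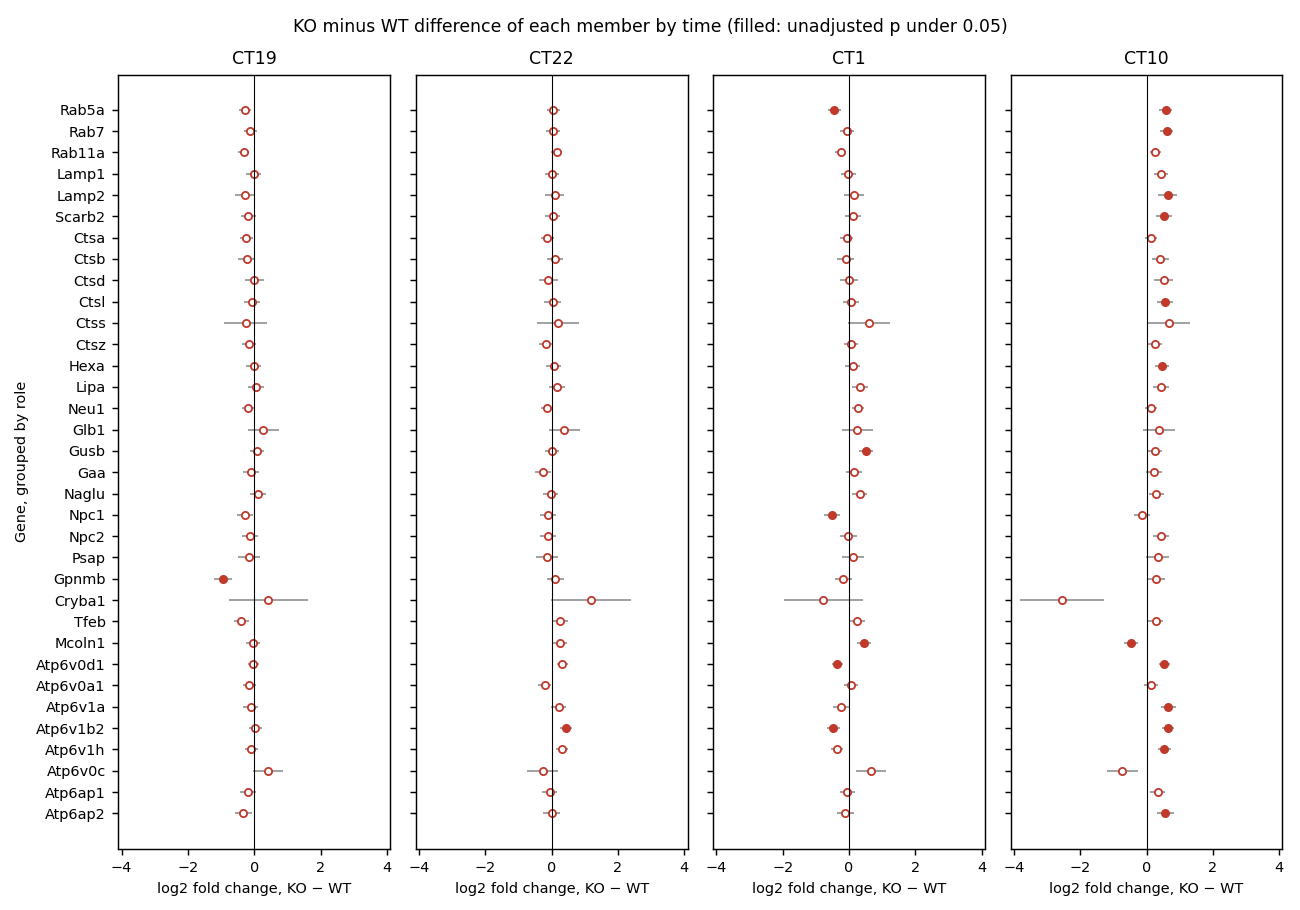
Fitted log2 difference KO minus WT of each of the 34 genes at each circadian time, with SE bars; filled points have an unadjusted p under 0.05. At CT10 30 of 34 points lie to the right of 0, at CT19 8 of 34, and no point of any panel passed after adjustment over all genes.

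The plot of differences by time shows the CT10 shift beside the other times. The size of the CT10 values moved in both directions with single libraries. The median log2 difference was 0.19 without WT CT10 replicate 4, with 4 genes at an unadjusted p under 0.05, and 0.22 without KO CT10 replicate 2, with 5 such genes. Without WT CT10 replicate 1 there were 5 such genes, at a median of 0.36, and without WT CT10 replicate 2 there were 15, at a median of 0.48. These counts too have no share of all genes beside them. The median was 0.23 once the RPE score was fitted as a covariate and 0.50 once the rod score was, and at least 27 of the 34 genes stayed above 0 in every alternative fit run.

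At CT19 the fitted differences lay mostly on the other side, at a median log2 difference of -0.13, against -0.01 over all genes. Of the 34 genes 8 had a higher fitted level in KO, as had 9861 of all 20275 genes. None passed after adjustment by edgeR (0.0691% of all genes did) or by DESeq2 (0.192% did), and 1 had an unadjusted p under 0.05 (3.47% of all genes did). That gene was Gpnmb, which encodes a glycoprotein of melanosomes and lysosomes. It was also the one gene of the 34 with every KO library below every WT library (5.31% of all genes were), and none had every KO library above (3.96%). Without KO CT19 replicate 2 the median was -0.32 and 7 genes had an unadjusted p under 0.05, and without the pooled library 3and5 the median was -0.003. The median was 0.007 without the 5 pooled libraries and 0.01 with the RPE score as a covariate, and then 19 and 20 of the 34 genes were above 0.

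Gpnmb (ENSMUSG00000029816, GRCm38 chromosome 6, 49036546 to 49070929, plus strand) held 294, 165 and 343 CPM in KO and 649, 425 and 472 CPM in WT at CT19. At CT22 it held 327, 299 and 507 CPM in KO and 376, 369.6 and 307 CPM in WT. At CT1 it held 454, 265 and 333 CPM in KO and 376, 406 and 406 CPM in WT. The genotypes overlapped at both of those times. At CT10 it held 383, 259 and 288 CPM in KO and 319.8, 225 and 216 CPM in WT. The CT19 difference was -0.95 ± 0.26 (log2, SE), with an unadjusted p of 0.00135 and an adjusted p of 0.507 (edgeR, Benjamini-Hochberg). It was -0.69 without the 5 pooled libraries. Markers of melanocytes and Schwann cells, all 6 of them detected in every group, were also lower at CT19. All 6 had a lower fitted level in KO, 3 with an unadjusted p under 0.05 and none passing after adjustment (edgeR), at a median log2 difference of -0.69. Their summed level was 293, 424 and 451 CPM in KO (lowest, median and highest) and 516, 577 and 703 CPM in WT at CT19. At CT22 the sum was 296, 407 and 544 CPM in KO and 531.1, 583 and 646 CPM in WT, where Gpnmb overlapped between the genotypes. Over the 24 libraries Gpnmb and the score of these markers had a Pearson r of 0.441 (p = 0.0315, adjusted p = 0.0946) and a Spearman rho of 0.371 (p = 0.0746, adjusted p = 0.211; two-sided permutation tests adjusted over 30 relations). The Pearson r was 0.467 within KO, 0.283 within WT and 0.189 without the 2 libraries farthest from the median score. The part of these markers in the Gpnmb difference was not tested.

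At CT22 and CT1 the median log2 difference was 0.04 and 0.02. Above 0 were 22 and 17 of the 34 genes, and 10688 and 9986 of all 20275 genes. These positions depended on the fit. With the rod score as a covariate 32 were above 0 at CT22, at a median of 0.29, and 4 at CT1, at a median of -0.33. Without KO CT22 replicate 3 there were 9 above 0 at CT22, at a median of -0.18. At CT1 the median was 0.16 without KO CT1 replicate 5, 0.107 without WT CT1 replicate 2 and -0.19 with the RPE score. At CT22 none passed by edgeR (0.227% of all genes did) or by DESeq2 (1.36% did), and 1 had an unadjusted p under 0.05 (12.7% of all genes did), Atp6v1b2 at 0.43 ± 0.19. No gene was without overlap in either direction (8.01% of all genes were higher in every KO library and 4.79% lower). At CT1 none passed by edgeR (0.533% of all genes did) or by DESeq2 (5.33% did), and 6 had an unadjusted p under 0.05 (19.5% of all genes did), but 0 without WT CT1 replicate 2. Of these, 2 were higher in KO (7.63% of all genes were), Gusb and Mcoln1 at log2 differences of 0.50 and 0.46. The other 4 were lower in KO (11.9% of all genes were), Atp6v1b2, Rab5a, Npc1 and Atp6v0d1 at -0.47, -0.45, -0.51 and -0.36. Lipa, Gusb, Naglu and Mcoln1 were higher in every KO library (10.1% of all genes were), and Rab5a, Rab11a, Atp6v0d1 and Atp6v1b2 were lower in every KO library (14.6%).

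Whether the genotype difference depended on time was asked of each gene with an interaction term. Of the 34 genes 1 passed, Atp6v1b2, against 4.62% of all genes tested (edgeR quasi-likelihood test, Benjamini-Hochberg), and 7 had an unadjusted p under 0.05, against 22.3% of all genes. Neither share stood above the background. Atp6v1b2 encodes the B2 subunit of the V1 sector, which forms the catalytic head of the pump together with the A subunit from Atp6v1a. It lies at GRCm38 chromosome 8, 69088646 to 69113711, plus strand (ENSMUSG00000006273), and no other annotated gene overlaps its exons.

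Atp6v1b2 held 419, 417 and 323 CPM in KO and 415, 354 and 362 CPM in WT at CT19, with overlap. At CT22 it held 303, 495 and 349.5 CPM in KO and 276, 306 and 271 CPM in WT, where 1 KO library lay inside the WT range. At CT1 it held 274, 260.4 and 226 CPM in KO and 406, 334 and 316 CPM in WT. All KO libraries were below all WT libraries there. At CT10 it held 359, 304 and 399 CPM in KO and 204, 246 and 226 CPM in WT, with all KO libraries above all WT libraries. The fitted log2 differences KO minus WT were 0.04 at CT19, 0.43 at CT22, -0.47 at CT1 and 0.65 at CT10. Their range of 1.12 had an unadjusted p of 0.00157 and an adjusted p of 0.0427 (edgeR, Benjamini-Hochberg).

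This call was close to the threshold and moved across it with single libraries. When each of the 24 libraries was left out in turn it held in 4 fits, those without KO CT19 replicate 2 or one of KO CT22 replicates 1and4, 2 and 3, and the adjusted p ranged from 0.0266 to 0.165. It was 0.00509 with DESeq2, 0.0642 with another scaling (RLE) and 0.0845 without the 5 pooled libraries. Rod markers moved with the gene over the libraries, but their genotype gap at CT19 had no match in the gene. The rod marker score, mean log2(CPM + 1) of the 12 markers, was 10.8 ± 0.85 in KO and 9.71 ± 0.59 in WT at CT22. At CT1 it was 9.94 ± 0.13 in KO and 11.2 ± 0.30 in WT. At CT10 it was 10.5 ± 0.32 in KO and 10.1 ± 0.36 in WT. At CT19 it was 10.99 ± 0.42 in KO and 10.52 ± 0.58 in WT, with overlap. That gap was wider than the one at CT10, while the gene differed by 0.04 at CT19 and 0.65 at CT10. Over the 24 libraries Atp6v1b2 and the rod score had a Pearson r of 0.718 (p = 0.00011, adjusted p = 0.000825) and a Spearman rho of 0.707 (p = 0.00014, adjusted p = 0.00105; two-sided permutation tests, 100000 resamples, adjusted over 30 relations). The Pearson r was 0.822 within KO, 0.627 within WT, 0.701 for deviations from the group means and 0.627 without the 2 libraries farthest from the median rod score. Fitted together with the rod score, the differences of Atp6v1b2 were -0.10 at CT19, 0.10 at CT22, -0.10 at CT1 and 0.56 at CT10. Their range was then 0.66 in place of 1.12, with an unadjusted p of 0.0123 and an adjusted p of 0.278 (edgeR, Benjamini-Hochberg). In that fit 13 of the 34 genes had an unadjusted interaction p under 0.05, in place of 7. The share of all genes at that threshold was not computed for it, so the rise has no background beside it. At an adjusted p under 0.05 that fit called 0 of the 34, in place of 1, and 22 of all genes, in place of 937. Over all fits run, the CT10 difference of Atp6v1b2 stayed between 0.50 and 0.80. Against the choroid marker score the gene had a Pearson r of -0.547 (p = 0.00601, adjusted p = 0.0308) and a Spearman rho of -0.527 (p = 0.00888, adjusted p = 0.0444; the same permutation tests), with r at -0.755 within KO, -0.252 within WT and -0.438 without the 2 farthest libraries. Against the melanocyte and Schwann cell marker score the Pearson r was -0.543 (p = 0.00617, adjusted p = 0.0308) and the Spearman rho -0.464 (p = 0.0229, adjusted p = 0.0858; the same permutation tests), with r at -0.918 within KO, 0.324 within WT and -0.347 without the 2 farthest libraries, so the relation did not hold within WT. For the immune marker score the Pearson r was -0.485 (p = 0.0165, adjusted p = 0.0621, the same permutation tests). The Spearman rho was -0.531 (p = 0.00809, adjusted p = 0.0444, the same tests). There r was -0.571 within KO, -0.497 within WT and -0.554 without the 2 farthest libraries.

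**Figure D3:**
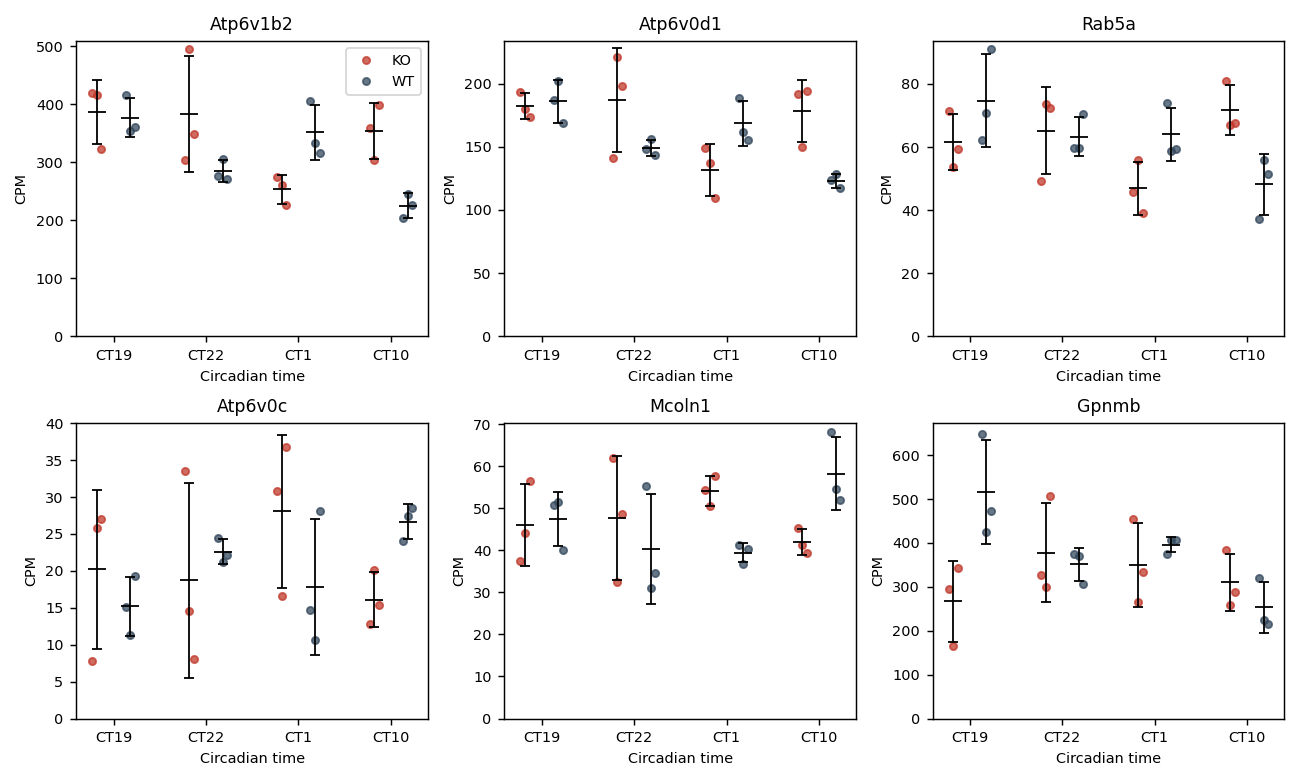
CPM of 6 of the genes by circadian time; points are libraries, KO left of WT, and bars give the mean ± SD of 3 libraries. For Atp6v1b2, Atp6v0d1 and Rab5a the KO libraries lie below the WT libraries at CT1 and above them at CT10, and for Mcoln1 and Atp6v0c the means stand in the reverse order.

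As the plot of single genes shows, Atp6v0d1 and Rab5a shared with Atp6v1b2 the order of the genotypes at CT1 and at CT10, without passing the interaction test. Atp6v0d1, the V0 subunit that joins the membrane ring to the central stalk, held 192, 149.9 and 194 CPM in KO and 123.7, 128.5 and 117.6 CPM in WT at CT10. At CT1 it held 149, 137 and 109 CPM in KO and 189, 162 and 155 CPM in WT. Neither time had overlap. Its range over times was 0.89 (log2, adjusted p = 0.0694), that of Rab5a was 1.02 (adjusted p = 0.0676) and that of Atp6v1h, a regulatory V1 subunit, was 0.90 (adjusted p = 0.103; edgeR quasi-likelihood, Benjamini-Hochberg). DESeq2 called 3 of the 34, Rab5a, Atp6v0d1 and Atp6v1b2, against 12.1% of all genes. These genes share the same libraries and are not independent of one another.

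In WT most of the genes had their highest mean in the subjective night. The WT mean was highest at CT19 in 27 of the 34, against 23.0% of all genes tested, and lowest at CT10 in 22, against 33.1%. In KO 14 were highest at CT10 (22.6% of all genes) and 10 at CT19 (22.5%), and 21 were lowest at CT1 (38.6%). These counts order group means whose differences mostly did not exceed the spread between libraries. No gene passed the test of any difference over time in WT, where 0.947% of all genes did, and 7 had an unadjusted p under 0.05 (19.3% of all genes did). None passed in KO, where 0.0% of all genes did, and 5 had an unadjusted p under 0.05 (11.7% did). DESeq2 called 1 gene over time in WT, Atp6v1b2 (6.88% of all genes), and 0 in KO (1.4%). The WT mean of Psap was 3957 ± 629 CPM at CT19, 3608 ± 422 at CT22, 2861 ± 370.05 at CT1 and 2672 ± 479 at CT10, and that of Ctsd 2539.6 ± 472 CPM, 2343 ± 64.9, 1885 ± 356 and 1692 ± 235 in the same order. The RPE marker score in WT was 10.2 ± 0.28, 10.1 ± 0.06, 9.77 ± 0.20 and 9.94 ± 0.08 at those times, and its part in the order was not tested.

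From CT22 to CT1, across subjective dawn, no gene passed by edgeR in either genotype. In KO none passed by edgeR (0.0% of all genes did), DESeq2 called 1, Atp6v1b2 (1.93% of all genes), and 4 were lower at CT1 with an unadjusted p under 0.05 (10.9% of all genes were), Atp6v1b2, Atp6v1h, Atp6v0d1 and Rab5a at log2 differences of -0.59 to -0.48. Without KO CT22 replicate 1and4 edgeR called 3 of them, Atp6v0d1, Atp6v1b2 and Atp6v1h. Calls over all genes rose in that fit as well, to 771 in place of 0. In WT none passed by edgeR (0.281% of all genes did) or DESeq2 (2.43% did), and 1 was higher at CT1 with an unadjusted p under 0.05 (9.9% of all genes were), Npc1 at 0.55.

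From CT1 to CT10, across the subjective day, the median log2 difference over the 34 genes was 0.15 in KO and -0.16 in WT (0.05 in KO and -0.05 in WT over all genes). Single libraries moved both medians. That of KO was 0.08 without KO CT10 replicate 2 and 0.07 without KO CT1 replicate 5. That of WT was -0.013 without WT CT10 replicate 4, -0.030 without WT CT1 replicate 2 and -0.24 without WT CT10 replicate 2. With RLE scaling they were 0.09 in KO and -0.09 in WT, with the RPE score -0.018 in KO and -0.35 in WT, and with the rod score 0.36 in KO and -0.47 in WT. In KO none passed by edgeR (0.0% of all genes did) or DESeq2 (0.365% did), and 5 were higher at CT10 with an unadjusted p under 0.05 (8.36% of all genes were), Rab5a, Atp6v0d1, Atp6v1b2, Atp6v1h and Rab11a at 0.34 to 0.61. Rab11a encodes a GTPase of recycling endosomes. In WT none passed by edgeR (3.48% of all genes did), and DESeq2 called 1, Atp6v1b2 (8.24% of all genes). There 7 were lower at CT10 with an unadjusted p under 0.05 (12.8% of all genes were), among them Atp6v1b2 at -0.64 ± 0.19 (adjusted p = 0.0545, edgeR, Benjamini-Hochberg), Gpnmb at -0.64 ± 0.26 and Atp6v1a at -0.54 ± 0.23. Mcoln1 was the 1 higher gene (8.53% of all genes were), at 0.56 ± 0.22. The interaction test above is the test of whether these changes differ between genotypes.

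Cryba1, which encodes the beta-A3/A1-crystallin of the lens and is known in the mouse RPE as a regulator of lysosomal acidity, spread more between libraries than any other of the 34. It held 366, 279 and 236 CPM in KO and 271, 281 and 103 CPM in WT at CT19. At CT22 it held 568, 2359 and 485 CPM in KO and 67.7, 301 and 1140 CPM in WT. At CT1 it held 227, 111.3 and 1818 CPM in KO and 201.1, 2667 and 828 CPM in WT. In KO CT22 and in KO CT1 a single library stood far above the other 2. At CT10 it held 514, 346 and 64.9 CPM in KO and 3821, 539.6 and 1024 CPM in WT, without overlap. That difference was -2.54 ± 1.26 (log2, SE), with an unadjusted p of 0.0602 and an adjusted p of 0.301 (edgeR, Benjamini-Hochberg).

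Lens transcripts moved with Cryba1. Its level and the mean of the 10 lens markers over the 24 libraries had a Pearson r of 0.988 and a Spearman rho of 0.977, given as a description with no test because the lens list was drawn up after the Cryba1 values were seen. The Pearson r was 0.985 within KO, 0.991 within WT, 0.987 for deviations from the group means and 0.984 without the 2 libraries farthest from the median lens score. At CT10 the summed lens markers were at 391, 2336 and 3190 CPM in KO (lowest, median and highest), against 4842, 8439 and 29974 CPM in WT. The genotypes did not overlap in this sum, as they did not in Cryba1.

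**Figure D4:**
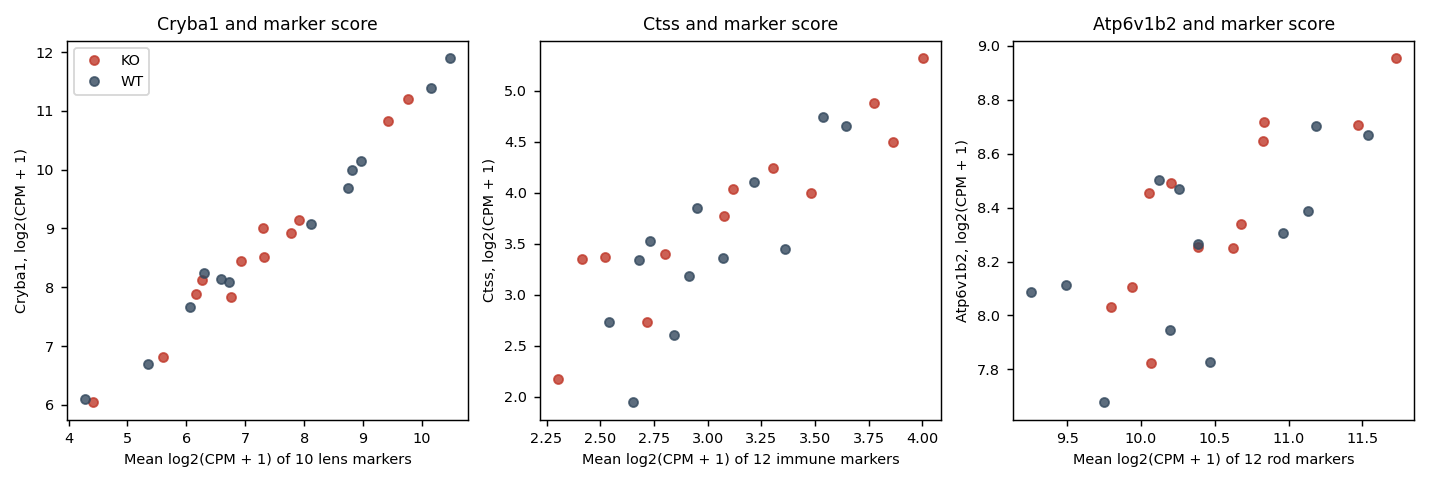
Level of 3 of the genes, log2(CPM + 1), against the mean log2(CPM + 1) of marker genes of another cell type in the same library; points are the 12 KO and 12 WT libraries. Cryba1 lies close to a line against the lens markers (r = 0.988), Ctss follows the immune markers (r = 0.86) and Atp6v1b2 the rod markers (r = 0.718) with more scatter.

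The plot against marker scores shows a second gene of this kind, Ctss, the cathepsin of antigen-presenting cells. It held 14.9, 28.6 and 21.6 CPM in KO and 9.90, 25.8 and 5.08 CPM in WT at CT10, with overlap, and between 2.86 and 39.0 CPM over all libraries. It correlated with the immune marker score with a Pearson r of 0.86 and a Spearman rho of 0.864 (p = 1e-05 and adjusted p = 0.00015 for both, two-sided permutation tests adjusted over 30 relations; 1e-05 is the smallest p that 100000 resamples can give). Like the other permutation tests here, these shuffled libraries across the 8 groups, and the 30 relations include those with the later lens list. Ctss itself was picked after its values were seen. The Pearson r was 0.917 within KO, 0.808 within WT, 0.811 for deviations from the group means and 0.823 without the 2 libraries farthest from the median immune score. The immune marker score was 3.71 ± 0.20 in KO and 3.25 ± 0.36 in WT at CT10, and its part in the Ctss level was not tested. The other 5 cathepsins did not share this spread, their highest library being at most 2.84 times the lowest.

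Around these 34 genes, further genes of the pathway were looked up in 5 lists. They held 17 other pump genes, of which 13 were tested, and 36 other hydrolases, 18 other lysosomal membrane proteins, 33 genes of phagosome and lysosome traffic and 17 genes of Tfeb and mTORC1 regulation, all tested. No gene of the lists passed by edgeR in the genotype average or at any single time. At an unadjusted p under 0.05 there were 7 of those tested in the average (5.98%, against 7.07% of all genes), 3 at CT19 (2.56%, against 3.47%), 13 at CT22 (11.1%, against 12.7%), 24 at CT1 (20.5%, against 19.5%) and 34 at CT10 (29.1%, against 17.9%). DESeq2 called 1 in the average, Ostm1 (0.855%, against 0.834% of all genes), and 0 at CT19 and 0 at CT22. It called 5 at CT1 (Lgmn, Abca2, Arl8b, Ostm1 and Atp6v0e2; 4.27%, against 5.33%) and 4 at CT10 (Gga3, Vps16, Sidt2 and Rraga; 3.42%, against 3.7%). The interaction term was passed by 6 by edgeR (5.13%, against 4.62% of all genes) and by 14 by DESeq2, all 6 included (11.97%, against 12.1%), so both shares were near the background. The 6 were Atp6v0e2, a small subunit of the pump's V0 sector, the hydrolase gene Idua, the lysosomal membrane genes Abca2 and Sidt2, the lysosome-positioning GTPase gene Arl8b, and Lamtor3, part of the scaffold that holds mTORC1 at the lysosome. Arl8b held 56.1, 50.7 and 50.2 CPM in KO and 36.9, 41.9 and 37.2 CPM in WT at CT10, and 43.2, 44.9 and 37.6 CPM in KO and 61.1, 60.02 and 50.8 CPM in WT at CT1. It stood in the same order as Atp6v1b2 at both times, as did Lamtor3 in its fitted differences. Abca2, Idua and Sidt2 stood in the reverse order, with log2 differences KO minus WT at CT10 of -0.44, -0.52 and -0.77, and at CT1 of 0.63, 0.44 and 0.61.

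Between CT10 and CT1 in WT, 5 of the further genes passed by edgeR (4.27%, against 3.48% of all genes) and 12 by DESeq2 (10.3%, against 8.24%). Vps16, part of the tethering complex for fusion with lysosomes, Idua and Sidt2 were higher at CT10, by log2 values of 0.58, 0.73 and 0.89 (adjusted p = 0.0391, 0.0384 and 0.0275; edgeR quasi-likelihood, Benjamini-Hochberg). Arl8b and Lamtor3 were lower at CT10, at -0.57 and -0.59 (adjusted p = 0.0263 and 0.0457; edgeR, Benjamini-Hochberg). Arl8b alone passed edgeR's test of any difference over time in WT (adjusted p = 0.0476, Benjamini-Hochberg), where DESeq2 called 11 (9.4%, against 6.88% of all genes). None of the further genes passed that test in KO by edgeR or DESeq2, where 15 had an unadjusted p under 0.05 by edgeR (12.8%, against 11.7% of all genes). Between CT1 and CT22 in KO none passed by edgeR, 26 had an unadjusted p under 0.05 (22.2%, against 16.7% of all genes), and DESeq2 called 1, Abca2 (0.855%, against 1.93%). In WT none passed by edgeR, 15 had an unadjusted p under 0.05 (12.8%, against 14.8% of all genes), and DESeq2 called 3, Laptm4b, Arl8b and Idua (2.56%, against 2.43%).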

How the data were processed

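The values are raw counts of reads per gene, whole numbers deposited by the authors with no normalization, in 24 libraries of laser-captured RPE. The submitters' processing notes name HTSeq 0.11, Cufflinks, HISAT2 2.1.0, Trimmomatic 0.32 and build GRCm38.p6. Whether the counting used strand, and which annotation it used, is not given in the sources used here. Values of Ctsa, Ctsb, Ctsz, Lamp1, Npc1 and Atp6v1h, whose exons overlap an expressed gene on the other strand, are therefore uncertain. Symbols were matched for 54079 identifiers; exon lengths and coordinates are from GENCODE release 21 for mouse (GRCm38).

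The test was edgeR 4.0.16 under R 4.3.3 (filterByExpr over the 8 groups, minimum count 10; TMM; robust quasi-likelihood fit of 8 group means, 16 residual degrees of freedom; Benjamini-Hochberg over 20275 genes, passed under 0.05), with DESeq2 1.42.0 as an alternative; shares of all genes called by DESeq2 are of the same 20275 genes. CPM used the TMM factors. For tests over several times the value is the range of the fitted log2 values. Other scalings, filters, marker scores as covariates, a replicate block and the omission of single libraries were tried as alternatives; the lens and RPE covariates and the omission of the 4 libraries richest in lens transcripts were added after the data were seen. Same-numbered libraries did not deviate together, so numbers were not taken as pairs. Within each group no pair of libraries had counts as alike as repeated sequencing of one library would give (chi-square per degree of freedom at least 32.4). Pairs in different groups were not checked, and this measure cannot show whether libraries came from one animal.

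The genes and lists were chosen with earlier results of these data known. Values per library are given for genes past the threshold, the 2 of smallest p in the genotype average (Npc1, Lipa) and the 2 widest over time in WT (Cryba1, Gpnmb); Rab5a, Atp6v0d1, Mcoln1, Atp6v0c, Ctss and Arl8b were added after their values were seen. Of the further pathway genes, those past the threshold with at least 5 CPM were named.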

Additional observations from a re-analysis of the deposited data

Results flagged for a closer look

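In 7 genes the genotype difference depended on time by the interaction term (edgeR quasi-likelihood, Benjamini-Hochberg), 1 of the 34 and 6 of the further pathway genes. These are 4.64% of the 151 genes tested, against 4.62% of all genes, so the share is near the background. The range over the 4 times of the log2 difference KO minus WT was 1.12 for Atp6v1b2 (adjusted p = 0.0427), 1.603 for Atp6v0e2 (adjusted p = 0.0309), 1.37 for Sidt2 (adjusted p = 0.0351), 1.06 for Abca2 (adjusted p = 0.0424), 0.96 for Idua (adjusted p = 0.0451), 0.95 for Lamtor3 (adjusted p = 0.0412) and 0.89 for Arl8b (adjusted p = 0.0248). Atp6v0e2 held 126.2, 131.8 and 113.6 CPM in KO and 273, 246 and 196 CPM in WT at CT1, the time at which the rod marker score was lower in every KO library than in every WT library.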

How the results depend on the processing

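The interaction count of 1 stood beside 937 of all genes called. It was 0 with RLE scaling (764 of all genes), with a filter of 5 CPM (1329) and without the 5 pooled libraries (298). With the rod (22), choroid (582) or lens score (422) as a covariate it was 0 as well. It was also 0 without the 4 libraries highest in lens markers (6) and with the replicate block (3). The count was 2 with the immune score (1405) and 4 with the RPE score (1486). DESeq2 gave 3 (Rab5a, Atp6v0d1, Atp6v1b2, beside 2455 of all genes). No filter on low counts also gave 3 (Cryba1, Gpnmb, Atp6v0c, beside 2686 of all genes). A changed filter also changes how many genes are tested. The count ran from 0 to 3 when each library was left out in turn. With no filter, 2 genes were called over time in KO and 3 in WT, 2 between CT10 and CT1 in KO, and 1 each in the genotype average, at CT19, at CT22, at CT10, and between CT1 and CT22 in KO and in WT. In place of 0, DESeq2 called 1 gene over time in WT (6.88% of all genes) and 1 between CT1 and CT22 in KO (1.93%). It also called 1 at CT10 (3.7%) and 1 between CT10 and CT1 in WT (8.24%). The choroid score gave 1 over time in WT (1101 of all genes) and 1 between CT10 and CT1 in WT (1882). The RPE score gave 1 over time in WT (520), 3 between CT10 and CT1 in WT (1315) and 1 at CT10 (202). The immune score gave 2 at CT10 (1001). In the main fit the all-gene calls were 192 over time in WT, 706 between CT10 and CT1 in WT and 7 at CT10. Leaving out single libraries gave 0 to 3 between CT1 and CT22 in KO and 0 to 1 between CT10 and CT1 in WT and over time in WT. The 3 came without KO CT22 replicate 1and4, where 771 of all genes were called (0 in the main fit). The cause of these moves was not tested. The replicate block took the adjusted p of Atp6v1b2 to 0.328 (edgeR); same-numbered libraries correlated at -0.0861 to 0.249 in their deviations from group means, and 2 of 20 correlated best with their own number. In the fits run, no member difference with an unadjusted p under 0.05 changed sign.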
